A study of Mus musculus with 10 samples.

Results

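The subject is a set of 10 genes that encode feedback inhibitors of MAP kinase signalling: the dual-specificity phosphatase genes Dusp1, Dusp4, Dusp5, Dusp6, Dusp7 and Dusp10, the Sprouty genes Spry1, Spry2 and Spry4, and Spred1. They were found by gene symbol among 30827 genes with a feature of their own on the array. Each of the 10 had 1 such feature, so the rule of taking the brightest feature by its mean over all arrays left nothing to choose. Dusp7 heads the set because its difference between the groups was already known, so its difference is described here without a test. The other members were chosen by gene family with earlier results of these data known.

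A miR-132 mimic had been injected at the wounds of 5 mice and a control mimic at those of 5 others, and each mouse gave 1 array. All 10 mice were male, homozygous for the db mutation of the leptin receptor (db/db [BKS(D)-Leprdb/JOrlRj)], background C57BL/6), which makes mice obese and diabetic, and were 11 weeks old before a week of single housing. Each 4 mm punch wound on the back got 0.5 nmol of mimic in a delivery reagent, injected into the skin around the wound once, right after wounding, and tissue from the wound edge was taken 6 days after injury. The labels do not say which cells took up the mimic, or whether a sample holds 1 wound or both wounds of a mouse, and no non-diabetic or unwounded skin was analysed here. The tissue carried the defining genes of skin, since the keratin gene Krt14 lay at 19.84 to 19.93 with miR-132 and 19.93 to 19.93 in controls, and the collagen gene Col1a1 at 16.52 to 17.66 with miR-132 and 17.09 to 17.49 in controls (log2 signal, with a shared upper limit of 19.93 on these arrays). In such mixed tissue, fewer cells of a type and less RNA per cell cannot be told apart.

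MAP kinases pass signals from growth factor receptors, cytokines and stress to the nucleus. ERK is the branch driven by growth factor receptors through Ras, Raf and MEK, and JNK and p38 are the branches driven mostly by stress and inflammation. Many inhibitors of the pathway are themselves switched on by it and so form negative feedback: dual-specificity phosphatases remove the activating phosphates from the kinases, whereas Sprouty and Spred proteins act further up, between the receptor and Raf. In skin, ERK signalling below the epidermal growth factor receptor accompanies keratinocyte proliferation and migration over a wound.

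The supplied RNA and the promoters of the members that differed most are shown first. A microRNA recognises messenger RNAs mainly through its seed, bases 2 to 8, which is in capitals below. The labels name the mimic as miR-132 without an arm. The 3p arm is the one commonly meant by that name, and both are given from RefSeq on GRCm38.p6, at chr11:75173723-75173744 for 3p and chr11:75173686-75173707 for 5p, both on the plus strand.
mmu-miR-132-3p: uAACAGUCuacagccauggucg
mmu-miR-132-5p: aACCGUGGcuuucgauuguuac

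RefSeq promoter windows of 300 bases, with 250 before and 50 after the gene start, were at hand for 8 of the 10 members, all but Dusp4 and Spry4. Both strands were searched for TGACG, the core of the cAMP response element, TGANTCA, the AP-1 site, CGGAAG, an Ets core, and the CArG box bound by serum response factor, all of them motifs of factors downstream of MAP kinases or cAMP. The 250 bases before the start are printed for Dusp7, Dusp1 and Dusp5, the members with the largest differences between the groups, with matches in capitals. They lie at chr9:106368382-106368631 (plus strand) for Dusp7, chr17:26508473-26508722 (minus strand) for Dusp1 and chr19:53528895-53529144 (plus strand) for Dusp5, on GRCm38.p6.
Dusp7: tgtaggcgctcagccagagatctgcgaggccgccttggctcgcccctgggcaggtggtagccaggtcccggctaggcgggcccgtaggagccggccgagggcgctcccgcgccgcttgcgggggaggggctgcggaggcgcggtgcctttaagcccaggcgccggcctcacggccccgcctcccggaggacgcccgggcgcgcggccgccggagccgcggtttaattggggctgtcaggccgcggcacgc
Dusp1: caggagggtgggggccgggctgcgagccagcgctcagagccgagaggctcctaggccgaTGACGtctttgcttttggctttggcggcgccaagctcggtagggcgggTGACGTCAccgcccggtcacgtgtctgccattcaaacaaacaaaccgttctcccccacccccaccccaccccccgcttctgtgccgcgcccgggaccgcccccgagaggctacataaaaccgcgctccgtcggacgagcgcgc
Dusp5: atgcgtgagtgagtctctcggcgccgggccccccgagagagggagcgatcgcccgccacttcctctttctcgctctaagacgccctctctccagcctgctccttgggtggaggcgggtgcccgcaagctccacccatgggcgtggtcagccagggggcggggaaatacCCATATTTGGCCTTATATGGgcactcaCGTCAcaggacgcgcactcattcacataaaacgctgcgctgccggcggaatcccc

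The Dusp1 window held 3 matches to TGACG, of which a pair overlaps in one palindrome. A match to TGACG occurred in 20.8% of all 32851 windows and 3 or more matches in 1.03%. The Dusp5 window held 2 CArG boxes side by side and 1 match to TGACG. A CArG box occurred in 1.63% of all windows and 2 or more of them in 0.0183%. An Ets core occurred 1 time in the Dusp6 window and 2 times in the Spred1 window, against 16.9% of all windows with at least 1 and 4.15% with 2 or more. No member window held the AP-1 letters, which 7.81% of all windows did, and the windows of Dusp7, Dusp10, Spry1 and Spry2 held none of the letters searched.

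Dusp7 averaged 1.96-fold lower in wounds given miR-132, and this came from 4 of the 5 arrays. Dusp5 and Dusp1 averaged lower and Spred1 higher with wide spread, and the other 6 members averaged within 0.1 of the control mean on the log2 scale. Over all 17697 genes tested, limma called 0 at a Benjamini-Hochberg adjusted p of 0.05 (0% of genes), and therefore 0 of the 10 members. At an unadjusted p under 0.05, 992 genes were lower (5.61%) and 438 higher (2.47%), among them Dusp5 in the lower direction. That split depended on the scaling and the arrays: it was 578 lower and 614 higher after a further quantile normalization, 1381 and 161 with each array centred on its median, and 401 and 614 without miR-132 replicates 2 and 5. By mean level 6 members lay lower and 4 higher with miR-132, with a median difference of -0.03, against 53.6% lower and a median of -0.02 over all genes tested. The groups overlapped for every member.

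**Figure D1:**
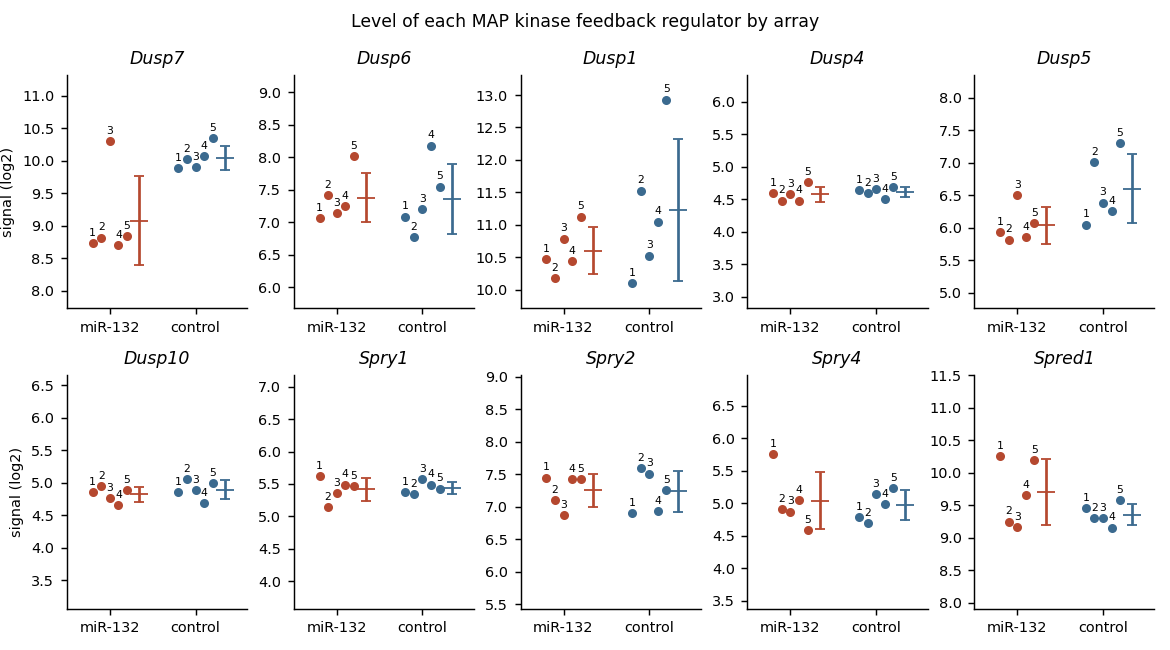
Signal (log2, vertical axis, each panel spanning the same range) of the 10 members on the 5 miR-132 arrays (red, left) and the 5 control arrays (blue, right), with replicate numbers at the points and the mean ± SD beside them. Dusp7 lay between 8.71 and 8.84 on 4 miR-132 arrays and at 10.30 on replicate 3, against 9.89 to 10.35 in controls.

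The ERK-selective phosphatases of the cytoplasm are Dusp6 and Dusp7. The Dusp7 signal (feature TC0900001345.mm.1) was 8.74, 8.82, 10.30, 8.71 and 8.84 on miR-132 replicates 1 to 5, against 9.89, 10.03, 9.91, 10.08 and 10.35 on control replicates 1 to 5. Replicates 1, 2, 4 and 5 lay below every control array and close together, whereas miR-132 replicate 3 lay inside the control range. The means were 9.08 ± 0.68 with miR-132 and 10.05 ± 0.18 in controls (SD, n = 5 each), a log2 difference of -0.97 ± 0.30 (moderated SE) or 1.96-fold lower. Without miR-132 replicate 3 the difference was -1.27 ± 0.13, or 2.42-fold lower. It was -1.10 ± 0.17 when that array was left out after a further quantile normalization of all 10 arrays. At least 4 miR-132 arrays below every control array were found for 6.62% of all genes tested, and a mean at least 1.9-fold lower for 0.831%. Nothing is read from these shares about Dusp7, since its difference chose it.

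Dusp6, the close relative of Dusp7 and the classical ERK-induced phosphatase, did not share this pattern. Its signal was 7.07, 7.42, 7.14, 7.25 and 8.02 with miR-132, against 7.09, 6.77, 7.20, 8.18 and 7.55 in controls. The groups overlapped almost fully, and the highest array of each, miR-132 replicate 5 and control replicate 4, stood above the rest of its group. The difference was 0.02 ± 0.27 (SE; limma's adjusted p of 0.995, n = 5 per group), and it turned to -0.04 with each array centred on its median. The list of 9 neutrophil markers had means of 9.66 to 10.27 with miR-132 and 9.34 to 11.53 in controls, and control replicate 4 was its highest array too. All 9 averaged lower with miR-132, beside 53.6% of all genes tested. Of these, S100a8 and S100a9 are also among the wound-activated keratinocyte markers below. Both stood at the signal limit of 19.93 on every array but miR-132 replicate 5. The neutrophil mean was 10.12 on miR-132 replicate 5 and 10.41 on control replicate 2, the array with the lowest Dusp6 signal. The part of those cells in the Dusp6 level was not tested.

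The phosphatases of the nucleus are Dusp1, Dusp4 and Dusp5, products of early response genes. Dusp5 acts on ERK alone, and its signal was 5.93, 5.82, 6.51, 5.86 and 6.07 with miR-132, against 6.05, 7.01, 6.39, 6.26 and 7.30 in controls. All 5 miR-132 arrays lay below the control mean and 3 lay below every control array, with miR-132 replicate 3 again the highest of its group. The means were 6.04 ± 0.28 with miR-132 and 6.60 ± 0.53 in controls (SD, n = 5 each), a log2 difference of -0.56 ± 0.25 (SE). Its unadjusted p was 0.0452, beside 5.61% of all genes tested that were lower at an unadjusted p under 0.05, and its limma adjusted p of 0.614 did not pass. The exact permutation test over all splits of the arrays into 5 and 5 gave a two-sided p of 0.0873, and without control replicate 5 the difference was -0.39 (limma's unadjusted p of 0.0988).

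Dusp1, which dephosphorylates p38 and JNK as well as ERK and restrains inflammatory gene expression, varied mainly among the controls. It measured 10.48, 10.18, 10.79, 10.44 and 11.13 with miR-132, against 10.10, 11.53, 10.53, 11.05 and 12.93 in controls. The miR-132 arrays stayed within 1 log2 unit, whereas control replicate 5 stood far above the rest and control replicate 1 below every miR-132 array. The means were 10.60 ± 0.37 with miR-132 and 11.23 ± 1.09 in controls (SD, n = 5 each), with a difference of -0.62 ± 0.48 (SE; limma's adjusted p of 0.748). The control SD of Dusp1 exceeded that of 99.3% of all genes tested. Without control replicate 5 the difference was -0.20 ± 0.31. That array also had the highest mean of the 9 macrophage and monocyte markers, 12.83, against 11.75 to 12.81 with miR-132 and 12.00 to 12.64 on the other controls. The marker mean was nearly as high on miR-132 replicate 4, 12.81, and on control replicate 1, 12.64, where Dusp1 measured 10.44 and 10.10. Control replicate 5 also had the highest mean of other lists described below. These were the 8 wound-activated keratinocyte markers (16.80), the 15 growth factor ligand genes (6.61) and the 15 ERK response genes (7.11). The part of those cell types or pathway genes in the Dusp1 level was not tested.

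Dusp4, a nuclear phosphatase of ERK and JNK, lay near the level filter of 4.17, at 4.48 to 4.76 with miR-132 and 4.50 to 4.69 in controls. Its difference was -0.04 ± 0.07 (SE; limma's adjusted p of 0.901). Dusp10, which acts on p38 and JNK and less on ERK, was dim as well, at 4.66 to 4.95 with miR-132 and 4.68 to 5.06 in controls. Its difference was -0.07 ± 0.08 (SE; limma's adjusted p of 0.832). At such low signal an array feature reports little of a change in the transcript, so these values do not show that the transcripts were equal.

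Sprouty proteins are induced by growth factors and hold back the activation of Ras and Raf. Spry1 measured 5.14 to 5.62 with miR-132 and 5.34 to 5.57 in controls, a difference of -0.02 ± 0.09 (SE; limma's adjusted p of 0.961). Spry2 measured 6.87 to 7.45 with miR-132 and 6.90 to 7.59 in controls, a difference of 0.01 ± 0.18 (limma's adjusted p of 0.995), and it turned to -0.05 with each array centred on its median. Spry4 measured 5.76 on miR-132 replicate 1, 4.59 to 5.05 on the other miR-132 arrays and 4.69 to 5.23 in controls. Its difference of 0.07 ± 0.20 (limma's adjusted p of 0.948) turned to -0.11 without miR-132 replicate 1. On that array the 7 adipocyte markers had their highest mean, 11.16, against 8.24 to 9.83 on the other miR-132 arrays and 8.20 to 10.55 in controls. All 7 averaged higher with miR-132, whereas 53.6% of all genes tested averaged lower. The 6 sebaceous gland markers had their highest mean there too, 10.47. Their mean was 10.31 on control replicate 1, where Spry4 measured 4.78. The part of fat tissue or sebaceous glands in the Spry4 level was not tested. Spry4 was dim as well, so its values do not show that the transcript was equal in the groups.

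Spred1, which brings the Ras inactivator neurofibromin to the membrane, was the member with the largest difference upward. It measured 10.26, 9.25, 9.17, 9.66 and 10.20 with miR-132, against 9.46, 9.30, 9.30, 9.16 and 9.58 in controls. Replicates 1, 4 and 5 with miR-132 lay above every control array, whereas replicates 2 and 3 lay inside the control range. The means were 9.71 ± 0.51 with miR-132 and 9.36 ± 0.16 in controls (SD, n = 5 each), a difference of 0.35 ± 0.23 (SE) or 1.27-fold higher, with limma's adjusted p at 0.715. It was 0.21 without miR-132 replicate 1 and 0.22 without miR-132 replicate 5.

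**Figure D2:**
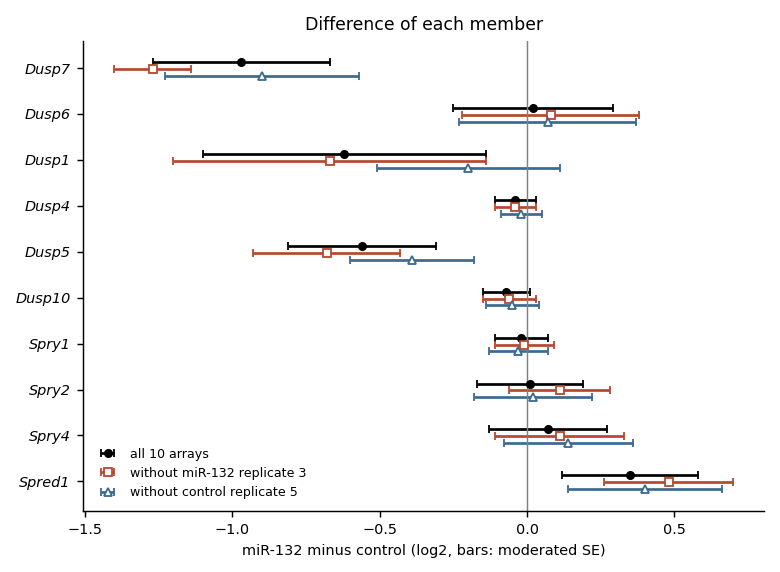
Difference in log2 signal (horizontal axis, miR-132 minus control, bars are the moderated SE) of each member over all 10 arrays (black circles), without miR-132 replicate 3 (red squares) and without control replicate 5 (blue triangles). Dusp7 stands at -0.97, -1.27 and -0.90 in these fits, whereas Dusp1 stands at -0.62, -0.67 and -0.20.

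How far the members moved together was read from their deviations from the group mean on the 10 arrays, which leave out the difference between the groups. Among the 45 pairs of members, Dusp1 and Dusp5 had the strongest relation (Pearson's r of 0.86, exact permutation p of 0.00562, adjusted p of 0.253 over the 45 pairs; Spearman's rho of 0.90, exact permutation p of 0.00403, adjusted p of 0.181), so it did not pass adjustment. Without the 2 arrays farthest from the Dusp1 median, control replicates 5 and 2, r was 0.74. It was 0.58 among the 5 miR-132 arrays and 0.93 among the 5 controls. Only 0.13% of all genes tested deviated at least as much like Dusp1 as Dusp5 did. The 5 genes most like Dusp1 were looked up after the values were seen. They were Slc15a2 (r of 0.93), Trem3 (r of 0.93), Nr4a3 (r of 0.93), Trib1 (r of 0.92) and Nr4a1 (r of 0.92). Of these, the orphan nuclear receptor genes Nr4a3 and Nr4a1 are early response genes, and Trib1 is a pseudokinase gene.

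The next smallest exact p was that of Dusp7 and Dusp5, with r of 0.61 (exact permutation p of 0.0115, adjusted p of 0.259) and rho of 0.39 (exact permutation p of 0.14, adjusted p of 0.903), and both had their highest miR-132 value on replicate 3. Between Dusp7 and its relative Dusp6, r was -0.08, and between Dusp7 and Spred1 it was -0.51, and the lowest adjusted exact permutation p of any further pair was 0.786. These values rest in part on miR-132 replicate 3 (a check added after seeing the data). Without it, r with Dusp7 over the other 9 arrays was 0.45 for Dusp6, 0.14 for Spred1 and 0.77 for Dusp5. For Dusp1 it was 0.91, against 0.33 over all 10 arrays, and for the other members it was -0.18 to 0.32. The arrays share their RNA mixture and normalization across genes, so such relations are a description.

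The genes whose deviations were most like those of Dusp7 over the 10 arrays were Lypd3, a surface protein gene of keratinocytes (r of 0.98, rho of 0.90), Wipf2, an actin regulator (0.97, rho of 0.87), Slc19a2, a thiamine transporter gene (0.97, rho of 0.85), Cltb, a clathrin light chain gene (0.97, rho of 0.79), and Arhgef10l, an exchange factor gene (0.97, rho of 0.86). Without miR-132 replicate 3, the array with the largest Dusp7 deviation, r for these genes was 0.66 to 0.86 over the other 9 arrays (a check added after seeing the data), so the closeness rests in part on that array. All 5 also averaged lower with miR-132, by -2.12 for Lypd3 and by -0.18 to -0.61 for the others. They were picked as the highest of 17696 values of r, and no test is given.

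Markers of wound-activated keratinocytes stood high on the same arrays as Dusp7. The mean of their 8 measured members was 15.53, 15.29, 16.74, 15.90 and 15.34 on miR-132 replicates 1 to 5, against 16.21, 16.46, 16.54, 16.52 and 16.80 on control replicates 1 to 5. Both the marker mean and Dusp7 were below every control on miR-132 replicates 1, 2, 4 and 5 and inside the control range on replicate 3. The list means of receptor tyrosine kinase genes and of ERK response genes, described below, split in the same way. Of all single genes tested, 6.62% had at least 4 miR-132 arrays below every control array. Dusp7 was chosen by its difference between the groups, so the shared split is only a description. Of the 8 markers, 7 averaged lower with miR-132, beside 53.6% of all genes tested, and 5 were lower at an unadjusted p under 0.05, beside 5.61% of all genes tested. After a further quantile normalization 3 of the 8 were, beside 578 of all 17697 genes tested. Of the markers, 3 reached the signal limit on at least 1 array. The basal keratinocyte markers averaged 9.98 to 10.60 with miR-132 and 10.26 to 11.17 in controls, with 10 of 10 lower. Of these 10, 8 were lower after a further quantile normalization, and 2 reached the signal limit on at least 1 array. The differentiated keratinocyte markers averaged 12.46 to 13.80 with miR-132 and 12.75 to 14.20 in controls, with 6 of 10 lower and 3 higher. All measured markers of these lists passed the level filter. The part of keratinocyte number or state in the Dusp7 level was not tested.

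**Figure D3:**
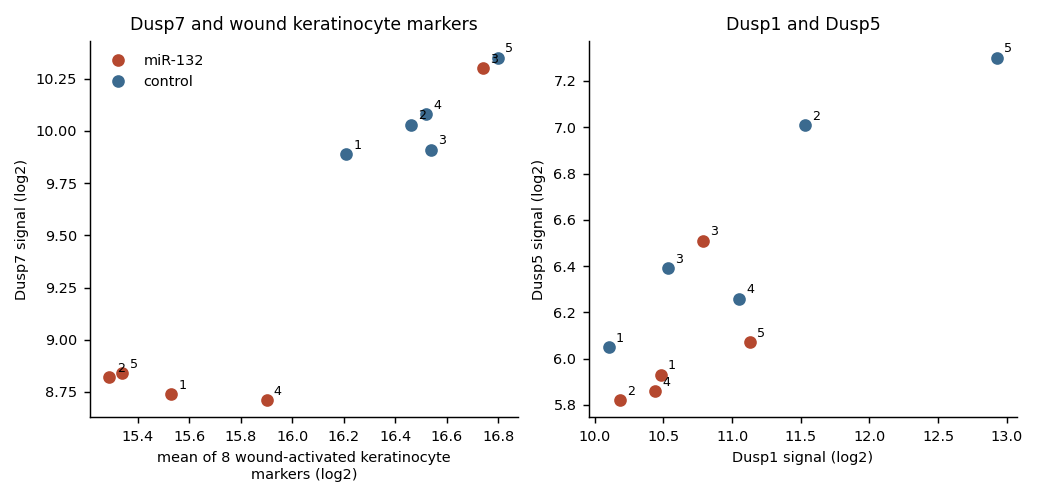
Left, Dusp7 signal against the mean of the 8 wound-activated keratinocyte markers, and right, Dusp5 signal against Dusp1 signal (all log2), with 1 point per array numbered by replicate, red for miR-132 and blue for control. On the left, miR-132 replicate 3 (10.30) lies among the controls and the other 4 miR-132 arrays lie apart, and on the right the upper end is held by control replicates 2 and 5.

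The rest of the pathway was described through 8 lists of genes. None of their members passed limma's adjusted threshold, and shares at an unadjusted p under 0.05 are to be read against 5.61% lower and 2.47% higher over all genes tested. Of 15 measured growth factor ligand genes, 1 was lower at that threshold and 0 were higher, with a list median of -0.03. That gene was Hbegf, a ligand of the epidermal growth factor receptor released by keratinocytes, at 6.66, 6.41, 8.35, 7.34 and 6.01 with miR-132, against 7.63, 8.07, 8.43, 8.42 and 9.44 in controls. Its difference was -1.44 ± 0.46 (SE; limma's adjusted p of 0.597), with miR-132 replicate 3 the highest of its group. Tgfa, another ligand of that receptor, differed by -0.90 and Fgf2, a fibroblast growth factor gene, by 0.17.

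Of 15 receptor tyrosine kinase genes, 4 were lower and 0 higher at an unadjusted p under 0.05, with a list median of -0.25. Egfr, the epidermal growth factor receptor gene, was 9.21 to 9.77 with miR-132 and 9.88 to 10.58 in controls, so its groups did not overlap, which held in the lower direction for 0.644% of all genes tested. Its difference was -0.50 ± 0.17 (SE; limma's adjusted p of 0.597). Epha2, an ephrin receptor gene and ERK target of epithelia, differed by -0.98 and Mst1r, the receptor gene for macrophage-stimulating protein, by -0.54. Without miR-132 replicate 3, 7 of the 15 were lower at an unadjusted p under 0.05, beside 10.4% of all genes. Limma then called 52 genes (0.294% of those tested), among them Mst1r (-0.73) with an adjusted p of 0.0421. It called 0 genes when that array was left out after a further quantile normalization of all 10 arrays.

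Among 11 adaptors, exchange factors and Ras proteins, 1 was lower and 0 higher, the adaptor gene Gab2 at -0.32, with Gab1 at -0.17 and the Ras activator Sos2 at -0.19. Among 14 Raf, MEK and ERK kinases, scaffolds and effector kinases, 4 were lower and 0 higher with a list median of -0.18, led by the scaffold gene Iqgap1 (-0.49), the Raf scaffold gene Ksr1 (-0.39) and the MEK-activating kinase gene Map3k8 (-0.27). Among 18 JNK and p38 kinases and activators, 4 were lower and 1 was higher with a list median of -0.20. Mapkapk2, a kinase activated by p38, differed by -0.45, and of the p38 activators Map2k3 differed by -0.53 and Map2k6 by 0.16.

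Inhibitor genes outside the 10 members had list medians near the -0.02 of all genes tested. Of 8 other measured dual-specificity phosphatase genes, 0 were lower and 0 higher at an unadjusted limma p under 0.05 (list median of -0.05). The smallest p among them was that of Dusp16, a JNK and p38 phosphatase, at -0.43 ± 0.20 (SE), followed by Dusp19 at 0.10 and Dusp18 at 0.14. Of 13 other receptor and Ras inhibitors, 1 was lower and 0 were higher (list median of -0.02). That gene was Spred2, a relative of Spred1, at 5.83, 5.66, 5.90, 5.60 and 5.91 with miR-132, against 6.00, 5.96, 6.07, 5.94 and 6.25 in controls. Its groups did not overlap, which held in the lower direction for 0.644% of all genes tested. The Spred2 difference was -0.26 ± 0.08 (SE; limma's adjusted p of 0.597), opposite in sign to that of Spred1. Lrig3, a gene for a membrane protein related to receptor inhibitors, differed by -0.28 and Dok2, an adaptor gene that dampens Ras, by 0.14.

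Of 15 ERK response genes, 13 had a lower mean with miR-132, beside 53.6% of all genes tested. At limma's unadjusted p under 0.05, 3 were lower and 0 higher, with a list median of -0.30. The list mean was 6.28 to 6.57 with miR-132 and 6.52 to 7.11 in controls, so the groups overlapped, and control replicate 5 was the highest. Egr3, a zinc finger transcription factor gene, was 5.47, 5.45, 6.20, 5.52 and 5.46 with miR-132, against 6.36, 6.13, 6.02, 6.57 and 6.18 in controls. Its arrays split as those of Dusp7 did, with 4 miR-132 arrays below every control and replicate 3 within the control range. Its difference was -0.63 ± 0.16 (SE; limma's adjusted p of 0.597), and without miR-132 replicate 3 it was -0.78 and passed with a limma adjusted p of 0.0412, as did Mst1r, in both cases not after a further quantile normalization. Phlda1, another gene induced by ERK, differed by -0.52, and Epha2 also belongs to this list. Etv5, a transcription factor gene often read beside Dusp6 and the Sprouty genes as an ERK output, differed by 0.07. It was dim, at 4.78 to 4.93 with miR-132 and 4.70 to 4.90 in controls, so its values do not show that the transcript was equal.

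The counts of these lists moved with the scaling, and so did those over all 17697 genes tested. A further quantile normalization gave 578 genes lower and 614 higher at limma's unadjusted p under 0.05, with a median difference of 0.02 over all genes. After a further quantile normalization, the Raf, MEK and ERK list had 1 gene lower at an unadjusted p under 0.05 (list median of -0.08), and the JNK and p38 list had 0 lower and 1 higher (list median of -0.10). The receptor list then had 3 lower (list median of -0.17) and the ERK response list 3 lower (list median of -0.22). The medians of the ligands, the adaptors and the other receptor and Ras inhibitors turned to 0.02, 0.02 and 0.03 under that scaling. Without miR-132 replicates 2 and 5, 0 receptor genes were lower at that threshold (list median of -0.28), beside 401 of all genes tested (median of 0.02). With each array centred on its median 8 ERK response genes were lower (list median of -0.36), beside 1381 of all genes tested (median of -0.08).

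**Figure D4:**
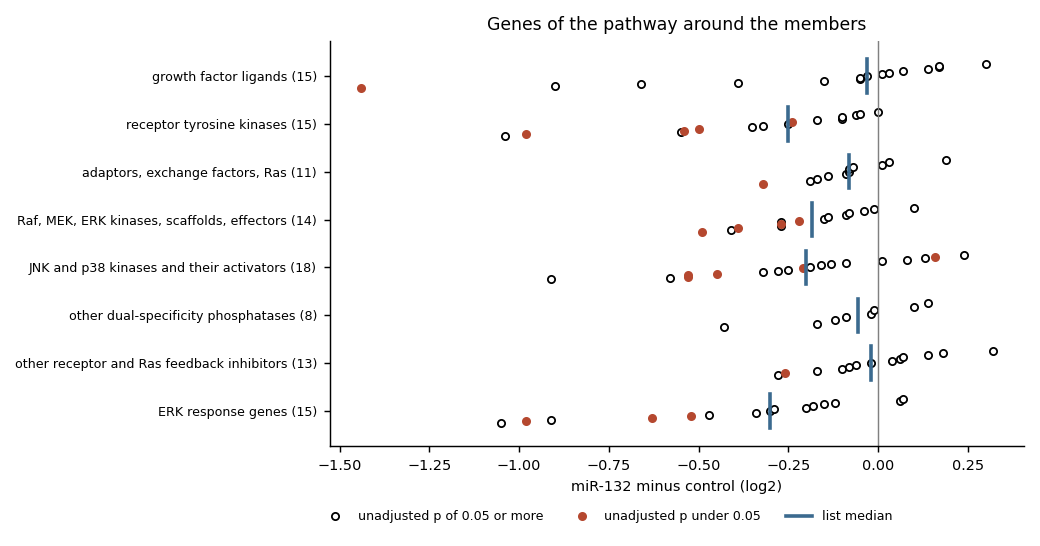
Difference in log2 signal (horizontal axis, miR-132 minus control) of every measured gene of the 8 pathway lists, with the number of genes in brackets, red where limma's unadjusted p was under 0.05 and open otherwise, and the list median as a blue bar. The medians run from -0.30 for ERK response genes to -0.02 for other receptor and Ras feedback inhibitors.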

How the data were processed

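The deposited values are taken as log2 signal of Affymetrix mouse Clariom D arrays, made by the authors with Affymetrix Expression Console 1.4 and RMA, per the submitters' processing notes. The log2 scale is read from their range and shared limit of 19.93. No source used here names the genome build of the features. All 10 columns matched a sample, 0 were left over. Symbols came from the platform annotation, updated through gene identifiers for 1611 features. Features with several genes were not used. The level filter kept genes whose 10-array mean exceeded 4.17, the median of this mean among all 72688 features; 17697 genes and all 10 members passed it.

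The comparison used limma 3.58.1 in R 4.3.3 (lmFit, eBayes with an intensity trend) on all 10 arrays without covariates, two-sided, Benjamini-Hochberg adjusted at 0.05. Differences are miR-132 minus control. The procedure was tested on simulated data. The members, lists and tests were chosen with earlier results of these data known. The rule for named genes took all members, the 3 genes of each pathway list with the smallest p, and the 5 genes most like Dusp7. List members without a feature of their own or under the level filter were not tested. Other exceptions are named where they occur. Arrays were compared under other normalizations, covariates, filters and with arrays left out. The replicate numbers were checked for pairing, and no pairing was shown. The number of arrays limits the precision.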

Additional observations from a re-analysis of the deposited data

Results flagged for a closer look

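The 33 members and named pathway genes gave 66 groups of 5 arrays to check. In 8 of these, 1 array stood far from the other 4 by Dixon's criterion, which chance alone meets in about 1 of 20 groups. Among the members this held for Dusp7 alone, at 10.30 on miR-132 replicate 3 against 8.71 to 8.84 on the other miR-132 arrays. The same array stood high for Tgfa (7.88 against 5.77 to 6.34), Mst1r (6.37 against 5.32 to 5.50) and Egr3 (6.20 against 5.45 to 5.52). On miR-132 replicate 1 Phlda1 stood at 6.63, against 6.15 to 6.23 on the others, and on miR-132 replicate 2 Map3k8 stood at 6.68, against 6.94 to 7.01. Among controls, Egfr stood at 10.58 on replicate 5 against 9.88 to 10.03, and Ksr1 at 5.79 on replicate 3 against 5.94 to 6.00.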

How the results depend on the processing

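The number of genes past limma's adjusted threshold was 0 with all 10 arrays under a further quantile normalization, median centring, spike-in signal as a covariate, no level filter, no intensity trend and array weights, and likewise for the members. With 1 array left out it ranged from 0 to 52 genes and from 0 to 1 member, the upper values without miR-132 replicate 3. That 1 member is Dusp7, whose difference chose it, so nothing is read from its call. Fits of that kind combined with quantile normalization, added after seeing the data, gave 0. Dusp7 ranged from -1.27 to -0.88 when 1 array was left out and from -1.37 (spike-in covariate) to -0.75 (without control replicate 5 on quantile normalized values) otherwise, Dusp1 from -0.91 to -0.20, Dusp5 from -0.70 to -0.39 and Spred1 from 0.21 to 0.48 with 1 array left out, so these 4 kept their direction in every fit run. Dusp1 came to -0.02 without control replicate 5 on quantile normalized values. The adjusted p of Dusp5 ranged from 0.263 to 0.877 over these fits by limma. Dusp4 (-0.12 to -0.01) and Dusp10 (-0.14 to -0.03) also kept theirs. Dusp6, Spry1, Spry2 and Spry4 changed sign in at least 1 fit, and the cause was not tested. Dusp6 was -0.04 after median centring and -0.20 without miR-132 replicates 2 and 5, and -0.14 to 0.23 with 1 array left out. Spry1 was 0.01 with array weights, 0.05 without miR-132 replicates 2 and 5, 0.02 without miR-132 replicate 3 on quantile normalized values, and -0.08 to 0.04 with 1 array left out. Spry2 was -0.05 after median centring, -0.07 with the spike-in covariate and -0.07 to 0.11 with 1 array left out, and Spry4 -0.11 to 0.18.

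Deviations of same-numbered arrays correlated by -0.03 to 0.17 over genes. The miR-132 replicates 1 and 2 matched the control of their own number best, and replicates 3, 4 and 5 did not. The check showed no pairing by number, and correlations this weak cannot exclude one. With the replicate block limma called 0 genes, the Dusp7 difference was -0.97 ± 0.31 and the lowest adjusted p among the other members was 0.662.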
